A study of Homo sapiens with 4 samples.

Results

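The receptors of the cytokines IL4 and IL13, their transcription factor STAT6 and the chitinase-like genes around CHI3L1 were examined as a group of 8 genes out of 19555 measured. The members are IL13RA2, IL13RA1, IL4R, STAT6, TMEM219, CHI3L1, CHI3L2 and CHIT1. They were selected on these same arrays, because IL13RA2 and CHI3L1 had been seen to change in opposite directions. The changes of the members between the genotypes are therefore given as a description, with no test. All 8 were found by gene name, each with 1 probe set (the group of probes that measures a transcript), and no filter on low values was applied.

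The samples were 4 cultures of U87MG, an established human malignant glioma line, each hybridised to an Affymetrix whole-transcript array. CD13 (APN), the cell-surface aminopeptidase encoded by ANPEP, was wild type in 2 of them and the L243P form, labelled as inactive, in the other 2. Both constructs have EGFP in their names, and both lines share the U87MG background. Which promoter drives them is not stated in the labels. Each genotype is 1 clone, grown in 2 independent experiments, so an effect of the genotype and a difference between clones cannot be told apart. A p-value here covers only how far repeat experiments of the same clone spread. Values are normalized intensities on a linear scale. A change is the mean log2 intensity of L243P minus that of wild type, given with its standard error (SE) from a limma fit across all rows (n = 2 per genotype).

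IL13 signals through IL13RA1, which pairs with IL4R. Janus kinases bound to these chains then phosphorylate STAT6, which enters the nucleus. IL13RA2 binds IL13 tightly but has a short cytoplasmic tail and has long been called a decoy. It is abundant in many glioblastomas and has served as a target for toxins and engineered T cells. CHI3L1, a secreted protein of the chitinase family without chitinase activity, marks mesenchymal glioma and reactive astrocytes. It has been reported to bind IL13RA2, with TMEM219 as a partner chain.

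Among the receptors, IL13RA2 was lower in L243P and the others were not. IL13RA2 was at 202 and 276 in the wild-type arrays and at 53 and 43 in the L243P arrays. Both L243P values lay under both wild-type values, and the closest arrays of the 2 genotypes differed by 3.81-fold. Within a genotype, the arrays differed by 1.37-fold (wild type) and 1.23-fold (L243P). The log2 change was -2.31 (SE 0.19), a 4.95-fold difference of the means on the log scale. Ordered from the lowest change upwards, IL13RA2 had rank 10 of the 19555 genes. In a culture measured in bulk, fewer cells with a transcript and less of it per cell cannot be told apart.

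IL13RA1, the signalling chain for IL13, was at 720 and 778 in wild type and 950 and 883 in L243P. The groups did not overlap, and the log2 change was 0.29 (SE 0.083), opposite in sign to that of IL13RA2. The closest arrays of the 2 genotypes differed by 1.13-fold, against 1.08-fold within each genotype. IL4R, the chain shared by the IL4 and IL13 receptors, was at 61 and 69 in wild type and 72 and 74 in L243P, and its log2 change was 0.17 (SE 0.13). Here the gap between the genotypes (1.04-fold) was smaller than that between the wild-type arrays (1.13-fold). STAT6 had the smallest ratio of highest to lowest array among the members, with 329 and 321 against 340 and 338 and a log2 change of 0.06 (SE 0.080). TMEM219, a membrane protein also described as a receptor for IGFBP3, was at 190 and 189 in wild type and 233 and 203 in L243P. Its L243P arrays differed from each other by 1.15-fold and from the nearest wild-type array by 1.07-fold, and its log2 change was 0.20 (SE 0.11). Without single arrays, the change lay between 0.10 and 0.30 for TMEM219 and between 0.08 and 0.26 for IL4R.

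Of the chitinase family, CHI3L1 was higher in L243P. It was at 1161 and 1081 in the wild-type arrays and at 4186 and 4636 in the L243P arrays. The closest arrays of the 2 genotypes differed by 3.61-fold, while arrays of the same genotype differed by 1.07-fold and 1.11-fold. The log2 change was 1.98 (SE 0.085), a 3.93-fold difference. Ordered from the highest change downwards, CHI3L1 had rank 4 of the 19555 genes. CHI3L2, a related protein without chitinase activity, was at 32 and 24 in wild type and 32 and 38 in L243P. The groups touched at 32, and the log2 change of 0.33 had an SE of 0.19. CHIT1, the chitotriosidase made by activated macrophages, was at 26 and 25 in wild type and 24 and 28 in L243P, so the L243P arrays lay on both sides of the wild-type ones. Its log2 change was 0.02 (SE 0.14), with either sign when single arrays were left out (-0.09 to 0.14). The change of CHI3L2 lay between 0.12 and 0.54 without single arrays. CHI3L2 and CHIT1 were below the array medians of 46 to 50 in all 4 arrays. Without detection calls, their signal is not separated here from background.

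Macrophages also make CHI3L1 and CHIT1. The 10 macrophage and microglia markers summed to 2219 and 2149 with wild type and to 2655 and 2841 with L243P, of which CD68, also found in the lysosomes of other cells, made up most. Without CD68 the sums were 287 and 278 against 249 and 272, and PTPRC, the leukocyte marker CD45, was at 8 or 9 in every array, near the array minimum of 3 or 4. CD68 was at 1932 and 1871 in wild type and 2406 and 2569 in L243P. Its log2 change was 0.39 (SE 0.074, limma adjusted p = 0.11), and it was not called. Whether CD68 has a part in the CHI3L1 result was not tested.

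The promoters of 7 members were found in a RefSeq table (build GRCh38.p14, 250 bases before to 50 after the annotated start), those other than IL13RA2. CHI3L1 and CHIT1 lie side by side on chromosome 1 among the measured genes, and their promoters are shown because the first was 3.93-fold higher in L243P while the intensities of the second overlapped. Both are on the minus strand and are written 5′ to 3′, with matches to the searched motifs in capitals.
CHI3L1 (chr1:203186655-203186954): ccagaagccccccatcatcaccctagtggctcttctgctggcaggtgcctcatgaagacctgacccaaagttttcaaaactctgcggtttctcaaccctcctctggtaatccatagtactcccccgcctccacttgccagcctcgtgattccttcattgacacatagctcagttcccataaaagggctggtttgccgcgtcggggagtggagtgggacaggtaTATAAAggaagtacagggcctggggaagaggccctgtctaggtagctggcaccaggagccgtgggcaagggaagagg
CHIT1 (chr1:203229624-203229923): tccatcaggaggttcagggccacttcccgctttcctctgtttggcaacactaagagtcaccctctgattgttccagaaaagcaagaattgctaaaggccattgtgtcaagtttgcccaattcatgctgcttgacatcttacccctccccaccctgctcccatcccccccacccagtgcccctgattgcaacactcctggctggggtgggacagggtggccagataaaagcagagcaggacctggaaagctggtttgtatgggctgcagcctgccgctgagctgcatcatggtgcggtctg

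The motifs were searched on both strands. The TATA box (TATAAA) was found 27 bases before the start of CHI3L1 and not in the CHIT1 window, and 11.5% of 35116 promoters of the same length held it. The half-sites TTC and GAA, the core of STAT sites, were found in neither window, whether 3 or 4 bases apart (7.66% and 6.44% of all promoters). TGANTCA, the AP-1 site, was in neither (7.71% of all promoters), nor were GGG and CC with 5 bases between, part of the NF-kB site (58.7%). The promoter of CHI3L2 held 1 pair of TTC and GAA 3 bases apart. These letters are descriptions of the windows and say nothing about binding.

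**Figure D1:**
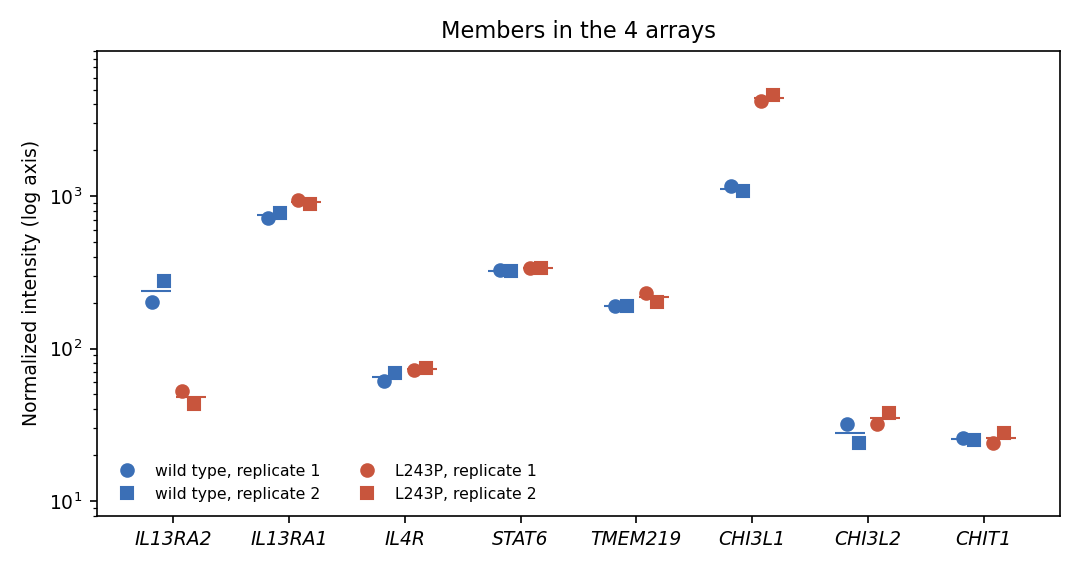
Normalized intensity (log axis) of the 8 members in each of the 4 arrays, wild type in blue and L243P in red, with circles for replicate 1, squares for replicate 2 and short lines for the group means. IL13RA2 is at 43 and 53 in L243P against 202 and 276 in wild type, CHI3L1 at 4186 and 4636 against 1161 and 1081, and the points of the other members lie close together. Heights of different genes are not comparable, because each has its own probes.

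**Figure D2:**
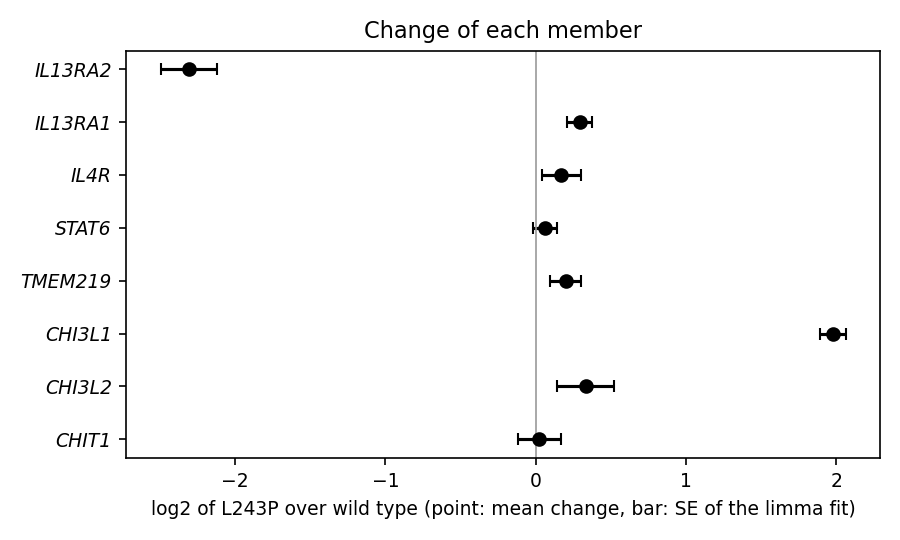
Change of each member (log2 of L243P over wild type), drawn as points for the mean change and bars for the SE of the limma fit. IL13RA2 (-2.31) and CHI3L1 (1.98) stand far from 0 on opposite sides, and the other 6 members lie between 0.02 (CHIT1, whose sign turned without single arrays) and 0.33.

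Both IL13RA2 and CHI3L1 were among the rows called by limma at a Benjamini-Hochberg adjusted p under 0.05, and the other 6 members were not. This describes the members and is no test of them. Over all 19555 genes, 189 were called (0.967%), of which 84 were higher (0.430%) and 105 lower (0.537%) in L243P. Nothing is read from the members' calls or their count, since the same contrast chose them. When each array was centred on its median, the total was 505, with 282 higher and 223 lower. With limma's default prior, with the replicate number as a block, or without any 1 of the 4 arrays, it was 0 (at least 1637 at an unadjusted p under 0.05). In 6 of the 8 members the arrays of the 2 genotypes did not overlap, 5 of them higher and 1 lower, beside 38.0% of all genes. The median change of the members was 0.18, beside -0.02 over all genes. In the authors' deposited table, the fold change of IL13RA2 was -5.0 with a proportion of false positives (pfp) listed as 0, and that of CHI3L1 was 3.9 with a pfp of 0.0025. For the other 6 members the lower of the 2 pfp values, one per direction, was between 0.73 and 1.03 in the authors' deposited table, above the authors' limit of 0.15.

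In the order of the RefSeq table, the measured genes on either side of IL13RA2 on the X chromosome are SNORA35, a small nucleolar RNA gene, and LRCH2, which encodes a protein with leucine-rich repeats. SNORA35 was at 45 and 38 in wild type and 41 and 50 in L243P, which overlap (log2 change 0.13). LRCH2 was at 32 and 30 in wild type and 10 and 11 in L243P, and it fell by 1.56 on the log2 scale (SE 0.13, limma adjusted p = 0.015). Its L243P values lay below the lower quartile of the arrays, and with 16 added to every intensity the change was -0.83. The call was lost with the default prior, with the block and without any 1 of the arrays. LRCH2 was the single gene called among the 5 measured neighbours on each side of IL13RA2. The changes of these 10 ran from -1.56 to 0.13 with a median of -0.12. The genotypes overlapped in 7 of them, while 38.0% of all genes did not overlap. Of the 10 neighbours of CHI3L1, CHIT1 among them, none was called (limma). Their changes ran from -0.15 to 0.50 with a median of 0.03. IL13RA1, also on the X chromosome, had neighbours with a median change of 0.22, none of them called. SLC6A14 was counted as a neighbour of both IL13RA1 and IL13RA2. Whether the shifts of neighbouring genes have a part in those of the members was not tested.

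**Figure D3:**
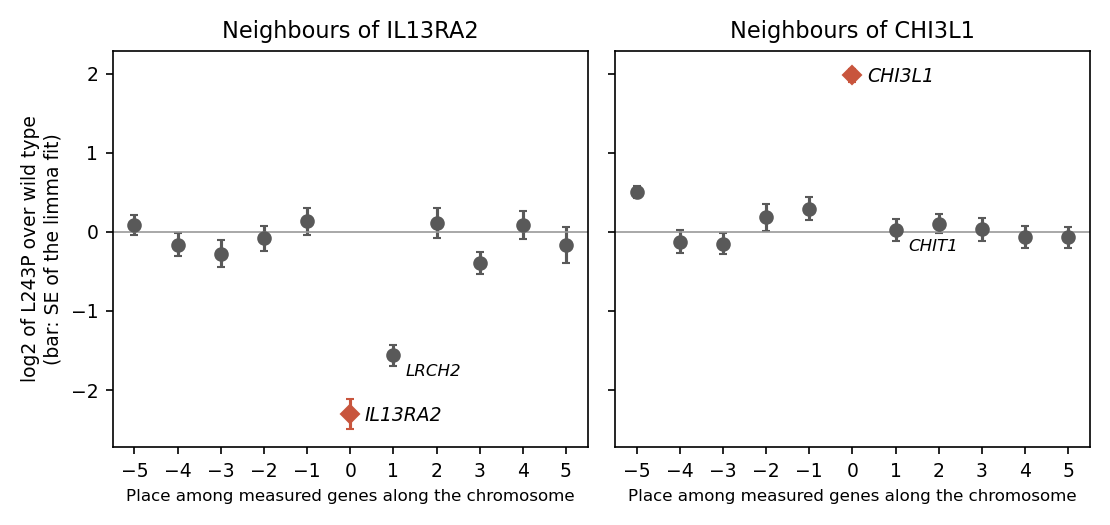
Change (log2 of L243P over wild type, bars for the SE of the limma fit) of IL13RA2 and CHI3L1, in red at place 0, and of the 5 measured genes on each side in chromosome order, in grey. LRCH2, on one side of IL13RA2, is at -1.56, and CHIT1, next to CHI3L1, is at 0.02.

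The genes of the wider pathway, 78 in 6 lists that hold none of the 8 members, showed 1 call among the 77 measured, POSTN. Over all genes 0.967% were called, so the share in these lists was close to the background. The arrays of L243P lay above those of wild type for 15 of the 77 and below for 21, and 41 overlapped. Over all genes, 38.0% did not overlap. The median change was -0.01, beside -0.02 over all genes. The lists were chosen with earlier results of these arrays known.

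The cytokines themselves were dim in all arrays. IL4 was at 9 in both wild-type arrays and at 10 and 8 with L243P, and IL13 at 17 and 16 against 13 and 16. IL2RG, the common gamma chain that pairs with IL4R for IL4, was at 24 and 21 against 20 in both L243P arrays. The lower quartile of each array was 15 or 16, so IL4 lay below it and IL13 around it. With these 3 counted, 0 of 15 ligands, partner chains and signal carriers passed (limma, median change -0.05). Among them, the transcription factor STAT5B had a mean of 111 ± 4.24 in wild type and 143 ± 15.6 in L243P (SD, n = 2, log2 change 0.36, SE 0.12, limma adjusted p = 0.33). The kinase JAK2 had a change of 0.26 (0.10 to 0.42 without single arrays) and the adaptor IRS1 of -0.21.

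Of 12 genes listed as dampers of the signal, 0 passed (limma), and their changes ran from -0.10 to 0.19 with a median of 0.00. The upper end, 0.19, was PARP14, counted in this list although it is a cofactor of STAT6. SOCS5, a suppressor of cytokine signalling, had a change of 0.14, and the phosphatases PTPN6 and PTPN2 of -0.10 and -0.07.

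Of 24 measured genes known to respond to IL4 and IL13 through STAT6 in other cell types, 1 fell, 0 rose and 23 were not called, with a median change of -0.01. The one that fell was POSTN, the matrix protein periostin, an IL13 target in airway epithelium. It was at 257 and 312 with wild type and at 23 in both L243P arrays (log2 change -3.62, SE 0.14, limma adjusted p = 0.0016). Its call too was lost with the default prior, with the block (limma adjusted p = 0.26 and 0.65) and without any 1 of the arrays (0.18 to 0.31), with the change between -3.76 and -3.48 in the latter. With 16 added to every intensity, the change was -2.94. The next largest changes were upward and did not pass. PPARG, a nuclear receptor of lipid metabolism, was at 39 and 37 in wild type and 61 and 72 in L243P (0.80, SE 0.14, limma adjusted p = 0.091). TGM2, a transglutaminase that cross-links proteins, was at 307 and 204 against 407 and 393 (0.68, SE 0.19, limma adjusted p = 0.23). Its change was 0.97 without the first wild-type array and 0.38 without the second. PDCD1LG2, a ligand of the immune receptor PD-1, was at 170 and 147 against 257 and 222 (0.60, SE 0.12, limma adjusted p = 0.13). All 3 were called when each array was centred on its median. In none of these 3 did the genotypes overlap, and 38.0% of all genes likewise did not. ALOX15, CCL26 and ARG1, often used as readouts of IL4 and IL13 and named here for that use, had changes of 0.05, 0.01 and -0.08. ARG1 was at 8 or 9 in every array, below the lower quartile, and ALOX15 between 27 and 29, below the array medians. CCL26 was between 73 and 81. The median intensity of the listed genes was 29 to 35 across the arrays, so the absence of a call says little for the dim ones.

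**Figure D4:**
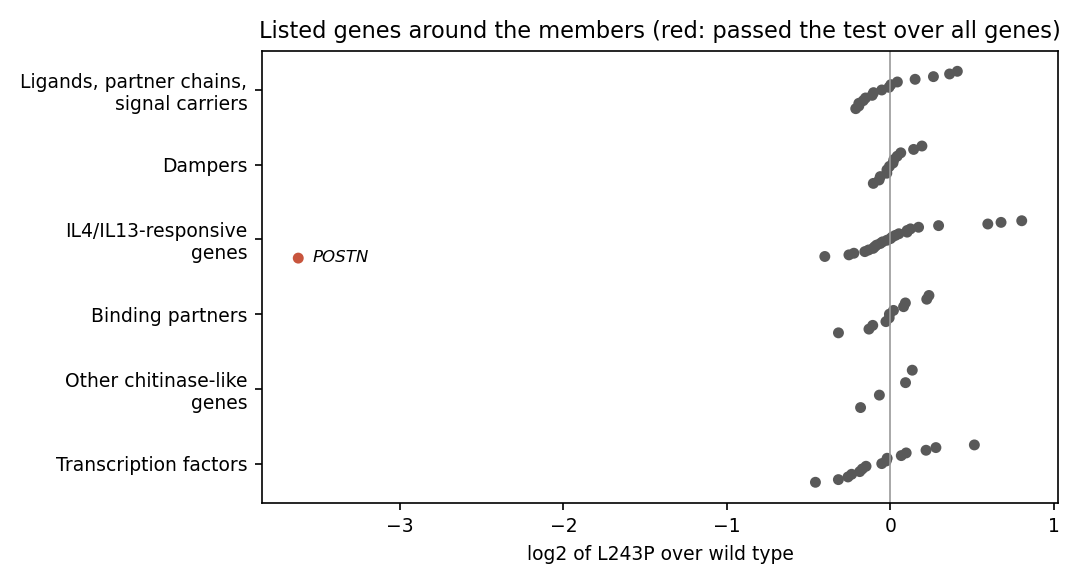
Change (log2 of L243P over wild type) of each measured gene in the 6 pathway lists, 1 point per gene, ordered within its list, with genes that passed the limma test over all genes in red. POSTN, at -3.62, is the red point, and the others lie between -0.46 and 0.80.

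Of 11 proteins reported to bind CHI3L1 or the tail of IL13RA2, 0 passed (limma), with a median change of -0.01. The integrin chain ITGB3 was at 899 and 971 in wild type and 755 and 744 in L243P (log2 change -0.32, SE 0.077, adjusted p = 0.18). ITGB5, another integrin chain, and SDC1, the surface proteoglycan syndecan 1, had changes of 0.24 and 0.22, and ITGAV, the alpha chain that pairs with both integrin chains, of -0.13. Of the 4 other genes of the chitinase and chitobiase group, 0 passed. OVGP1, CTBS, CHIA and CHID1 had changes of -0.18, 0.13, 0.09 and -0.07.

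Of 15 transcription factors reported at the CHI3L1 or IL13RA2 promoters, 0 passed (limma), with a median change of -0.05. Nuclear factor I members went both ways. NFIB was at 88 and 97 in wild type and 138 and 126 in L243P (0.51, SE 0.12, limma adjusted p = 0.16), NFIX had a change of 0.28 and NFIA of -0.46 (-0.68 to -0.24 without single arrays). NFKB1, a subunit of NF-kB, was at 159 and 154 against 124 and 127 (-0.32, SE 0.099, limma adjusted p = 0.28).

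The patterns most like those of IL13RA2 and CHI3L1 were sought over the 4 arrays, by the root-mean-square (RMS) difference of log2 intensities after each gene was centred on its own mean. For IL13RA2 they were BAMBI, a pseudoreceptor of the TGF-beta family (RMS 0.14), the linker histone gene H1-2 (0.15), the hyaluronan synthase gene HAS2 (0.19), the protease inhibitor gene SPINK1 (0.19) and TMEM45A (0.19). BAMBI was at 230 and 326 with wild type and at 63 in both L243P arrays, with the second wild-type array the brightest, as for IL13RA2. For CHI3L1 they were TUSC3, a subunit of the oligosaccharyltransferase (0.14), MRGPRF, an orphan G protein-coupled receptor (0.27), the laminin chain gene LAMA4 (0.27), PLXDC1 (0.29) and OLFML3, which encodes a secreted olfactomedin-like protein (0.29). TUSC3 was at 65 and 75 in wild type and 245 and 248 in L243P. None of the 10 is a member. With 4 arrays, such likeness reflects mainly a similar size of change, and H1-2 belongs to a family of similar copies that can share signal.

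**Figure D5:**
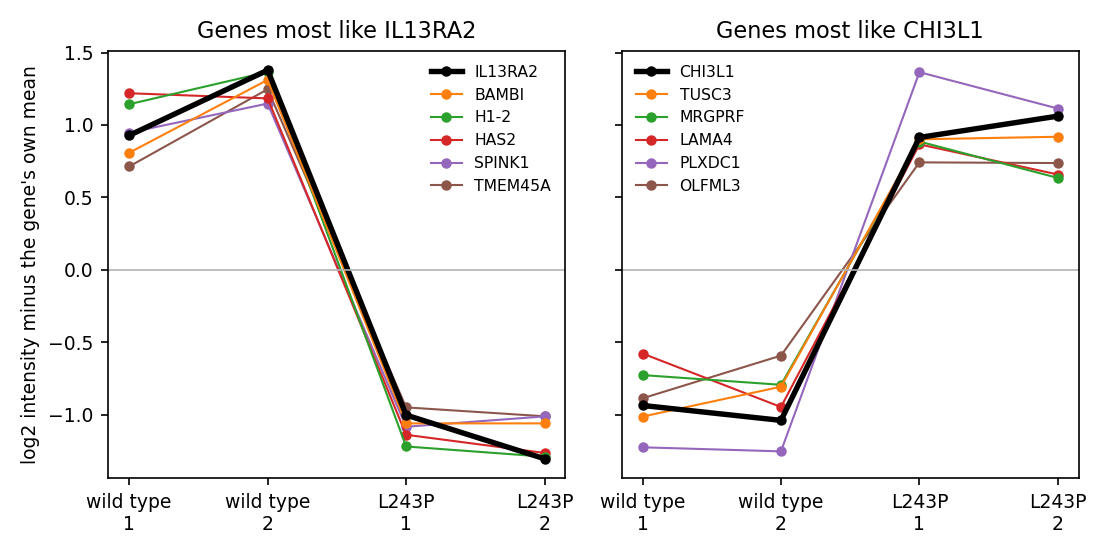
Log2 intensity minus the gene's own mean in the 4 arrays, for IL13RA2 and CHI3L1 (black) and the 5 genes most like each (colours). Lines only join the points of a gene. IL13RA2 and its 5 genes are high in both wild-type arrays and low in both L243P arrays, and CHI3L1 and its 5 genes the reverse.

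Over all rows, log2 intensities correlated at 0.993 within wild type, 0.995 within L243P and between 0.990 and 0.991 across genotypes. ANPEP was at 8447 and 9103 in wild type and 6439 and 7122 in L243P (log2 change -0.37, SE 0.085, limma adjusted p = 0.16), and its probe set does not tell the forms apart. Of the glioma markers, VIM was between 6134 and 8297 and CD44 between 1889 and 2240, while the astrocyte markers S100B and AQP4 were at 20 or below. In 3 of the 9 measured markers of this list the genotypes did not overlap, beside 38.0% of all genes. NES, an intermediate filament of neural progenitors, was at 62 and 74 in wild type and 104 and 112 in L243P (0.67), while SOX9 (-0.53) and FABP7 (-0.64) were lower in both L243P arrays. FABP7 was at 60 and 40 in wild type and 34 and 29 in L243P (SE 0.22). Its wild-type arrays differed by 1.5-fold, more than the closest arrays of the 2 genotypes (1.18-fold). The median change of the 9 markers was -0.11, and whether these markers have a part in the members' results was not tested. The 6 measured lymphocyte markers were between 10 and 97 and the 7 endothelial markers between 15 and 76, with median changes of -0.10 and 0.06. None of the markers was called (limma), and none was listed at 0.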

How the data were processed

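Per the submitters' processing notes and the deposited description, RMA in Rosetta Resolver gave 1 background-corrected, quantile-normalized value per probe set. Neither its version nor a genome build is stated there. The deposited intensity values are linear and rounded by the authors to whole numbers. The authors' deposited table also gives mean intensities, a signed fold change and a pfp (both treated as a score), and p-values of the authors' own tests. The authors selected probe sets by rank products at a pfp of 0.15 or lower. Arrays have no read depth, and the precision is limited by having 4 of them.

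The 29085 probe sets were named from the table. Of 19607 names, 18201 were found in RefSeq as current or older symbols (GRCh38.p14), used for names, gene order and promoters. The brightest probe set stood for each of 19555 genes, and 7978 unnamed rows were kept. Intensities were log2 transformed without further normalization or filter. The genotypes were compared with limma 3.58.1 (R 4.3.3; trend = TRUE, robust = TRUE), with Benjamini-Hochberg adjustment over 27533 rows and a threshold of 0.05. This fit was taken over from earlier work on these data, in which limma's default prior had called 0 genes, so the calls rest on that choice. In 836 rows, rounding left no spread within the genotypes. On simulated data the fit recovered the size of planted changes, while the share of them it called depended strongly on the spread assumed. In the text, a gene rose, fell or was called only where it passed, except for the members, whose changes carry no test.

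The members, lists and the choice of fit were made with earlier results of these data known. All 8 members were named. Of each list, the genes that passed and those with the largest changes were named, up to 4, together with IL4, IL13, IL2RG, ANPEP and neighbours that passed. Markers, and ALOX15, CCL26 and ARG1, were named for their use, except that NES, SOX9, FABP7 and the neighbour SNORA35 were chosen after their values were seen. MUC5AC, GFAP, CD3D and PECAM1 were listed but not analysed here, and some listed genes are not reported here by name.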

Additional observations from a re-analysis of the deposited data

How the results depend on the processing

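IL13RA2 stayed lower and CHI3L1 higher in L243P under each of the 11 alternatives, but several of these could not move the estimates. The default prior, the brighter rows and the replicate block left both changes exactly as in the main fit. So did averaging over probe sets and a second deposited copy of the values. Both genes were also chosen for these directions on these arrays, so the count is no evidence for them. Without each array in turn, the log2 change lay between -2.53 and -2.08 for IL13RA2 and between 1.90 and 2.05 for CHI3L1. Adding 16 to every intensity before log2 moved IL13RA2 to -1.98, POSTN from -3.62 to -2.94 and LRCH2 from -1.56 to -0.83. In L243P, POSTN and LRCH2 were below the array medians (46 and 50), and IL13RA2, at 53 and 43, was near them. The counts of calls were less stable. Median centring gave 505 calls over all genes and 4 in the pathway lists (POSTN, PDCD1LG2, PPARG and TGM2), against 189 and 1. A fit on the brighter 50% of the rows gave 442 and 2 (POSTN and PPARG). Limma's default prior gave 0 and 0, the lowest adjusted p being 0.256 (2785 and 13 at an unadjusted p under 0.05). The replicate block gave 0 and 0, with 1637 and 10 at an unadjusted p under 0.05. Deviations of same-numbered arrays correlated at -0.16, and a block with the numbers crossed, chosen after seeing the data, gave 0 and 0 (2537 and 11 unadjusted). Without any of the 4 arrays limma gave 0 and 0, with at least 2308 and 11 unadjusted, and there the lone array of a genotype is assumed to vary like the others. POSTN and LRCH2 thus lost their calls under the default prior, the block and each left-out array, with changes between -3.76 and -3.48 and between -1.63 and -1.49 in the latter. Changes near 0 turned sign. IL4 was at 0.021 after median centring and between -0.17 and 0.15 without single arrays. CHIT1, a member, lay between -0.09 and 0.14 without single arrays. In the same way, CTBS lay between -0.10 and 0.37, ITGAV between -0.28 and 0.021, PTPN2 between -0.14 and 0.00038 and CHIA between -0.069 and 0.25. With 2 arrays per genotype, the number of genes called is not settled by these data. The causes were not tested.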
